A study of Mus musculus with 9 samples.

Results

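The genes described here encode the ligands and receptors of the transforming growth factor β (TGF-β) pathway: Tgfb1, Tgfb2, Tgfb3, Tgfbr1, Tgfbr2, Tgfbr3, Eng and Acvrl1. They were picked by gene symbol, and all of their probe sets were taken. A probe set is the group of short probes on the array that reads 1 transcript. The 8 genes had 19 probe sets, of 18193 genes and 45037 probe sets in all. Their mRNA was measured in sclerotome, the somite-derived mesenchyme that forms vertebrae and intervertebral discs, dissected from wild type mouse embryos at E11.5 (embryonic day) and grown as dense micromass drops in serum-containing medium after the notochord had been removed. The 9 arrays formed 3 groups of 3: cultures with TGF-β1 at 5 ng/ml for 8 hours, cultures with BMP4, a bone morphogenetic protein, at 50 ng/ml for 8 hours, and untreated cultures. Whether the factors were added after overnight culture or soon after attachment is given differently in the sample records, so the age of the cultures is uncertain. The experiment was set up on 3 separate occasions. Unless stated otherwise, the p values rest on the spread of arrays within each group and are not paired by occasion.

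The TGF-β ligands are secreted in a latent form that is held in the matrix and has to be released before it can act. The active ligand binds the type II receptor TGFBR2, which recruits and phosphorylates a type I receptor, usually TGFBR1, and the type I receptor phosphorylates Smad2 and Smad3, which join Smad4 and enter the nucleus. ACVRL1 (ALK1) is an alternative type I receptor that signals through the BMP-type Smads and is best known from endothelium. TGFBR3 (betaglycan) and ENG (endoglin) are co-receptors without kinase activity, and betaglycan is needed in particular for binding of TGF-β2. In the axial skeleton, loss of Tgfbr2 from cells that express collagen II is known to disturb the formation of the intervertebral disc.

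Promoter sequence is shown for the 4 genes that changed or differed between the factors and have an entry in the RefSeq promoter table, since Smad3 and Smad4 can bind the letters CAGAC. Of the 8 genes, 5 had an entry, with 6 start sites among them. The sequences are the 250 bases before the start site, 5′ to 3′ on the strand of the gene, in the GRCm38.p6 build. Capitals mark CAGAC or its reverse complement GTCTG. The windows lie at chr7:25686752-25687001 (plus strand) for Tgfb1, chr1:186705990-186706239 (minus strand) for Tgfb2, chr9:116175364-116175613 (minus strand) for Tgfbr2 and chr2:32646345-32646594 (plus strand) for Eng.
Tgfb1: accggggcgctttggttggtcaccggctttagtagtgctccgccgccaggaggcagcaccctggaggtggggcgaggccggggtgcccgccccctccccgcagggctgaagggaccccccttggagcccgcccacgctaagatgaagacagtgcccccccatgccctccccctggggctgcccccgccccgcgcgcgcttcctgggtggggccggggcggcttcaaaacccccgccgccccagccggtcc
Tgfb2: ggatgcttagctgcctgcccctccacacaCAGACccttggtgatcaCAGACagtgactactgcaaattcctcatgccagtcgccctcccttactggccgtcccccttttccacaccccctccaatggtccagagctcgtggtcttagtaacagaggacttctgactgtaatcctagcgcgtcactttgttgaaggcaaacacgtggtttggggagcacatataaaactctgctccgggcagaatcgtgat
Tgfbr2: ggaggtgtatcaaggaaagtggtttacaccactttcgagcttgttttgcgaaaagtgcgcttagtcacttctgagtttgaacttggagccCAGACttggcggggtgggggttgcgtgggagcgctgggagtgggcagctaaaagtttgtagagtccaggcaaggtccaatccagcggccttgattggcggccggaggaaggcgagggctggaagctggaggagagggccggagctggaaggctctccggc
Eng: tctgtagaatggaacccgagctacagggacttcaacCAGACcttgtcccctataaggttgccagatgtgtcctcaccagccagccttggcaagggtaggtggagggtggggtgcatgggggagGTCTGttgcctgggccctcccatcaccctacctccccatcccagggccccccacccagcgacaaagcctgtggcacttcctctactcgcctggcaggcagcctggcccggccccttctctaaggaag

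Tgfb1 had 0 matches to CAGAC on either strand in a window of 75.2% G and C. Tgfb2 had 2 matches, at bases -221 to -217 and -204 to -200 from the start site. Tgfbr2 had 1 match, at bases -160 to -156, and Eng had 2 matches, at bases -214 to -210 and -127 to -123. Tgfbr1 had 2 start sites, of which 1 held a single match and the other none. Of 32851 mouse promoters of this length, 42.2% held CAGAC on either strand, so these letters are common. The palindrome GTCTAGAC, which contains no CAGAC, was in 0.167% of the promoters and in none of the 6 windows. GGCGCC, bound by the Smads of the BMP branch, was in 9.59% of the promoters and in 1 of the 6 windows, that of a Tgfbr1 start site. A match of letters is a description and not a binding site.

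The values of the 8 genes are log2 signals that had been centred for each probe set on its median over the 9 arrays. Differences between arrays are kept on this scale, levels are not, and 1 gene cannot be ranked against another by level. Whether a transcript was above background could not be judged either. Changes were called at an adjusted p under 0.05 from limma, and errors of differences are standard errors (SE). Of the 19 probe sets, 8 were called with TGF-β1 against untreated cultures (3 higher and 5 lower), where 4.43% of all probe sets were called (1.83% higher and 2.6% lower). With BMP4 against untreated cultures 4 were called (1 higher and 3 lower), where the share over all probe sets was 5.44% (2.31% higher and 3.13% lower). Between TGF-β1 and BMP4 cultures 11 were called (5 higher and 6 lower in TGF-β1 cultures), where the share was 6.91% (3.41% higher and 3.49% lower). Probe sets of 1 gene are not independent, and by gene these calls fell on 4, 4 and 5 of the 8 genes, where 6.75%, 7.96% and 10.1% of all genes were called on 1 probe set each. A fit blocked on the replicate number called 4029 of all probe sets (8.95%) in place of 1993 for TGF-β1 with untreated, and 5252 (11.7%) in place of 3110 for TGF-β1 with BMP4.

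**Figure D1:**
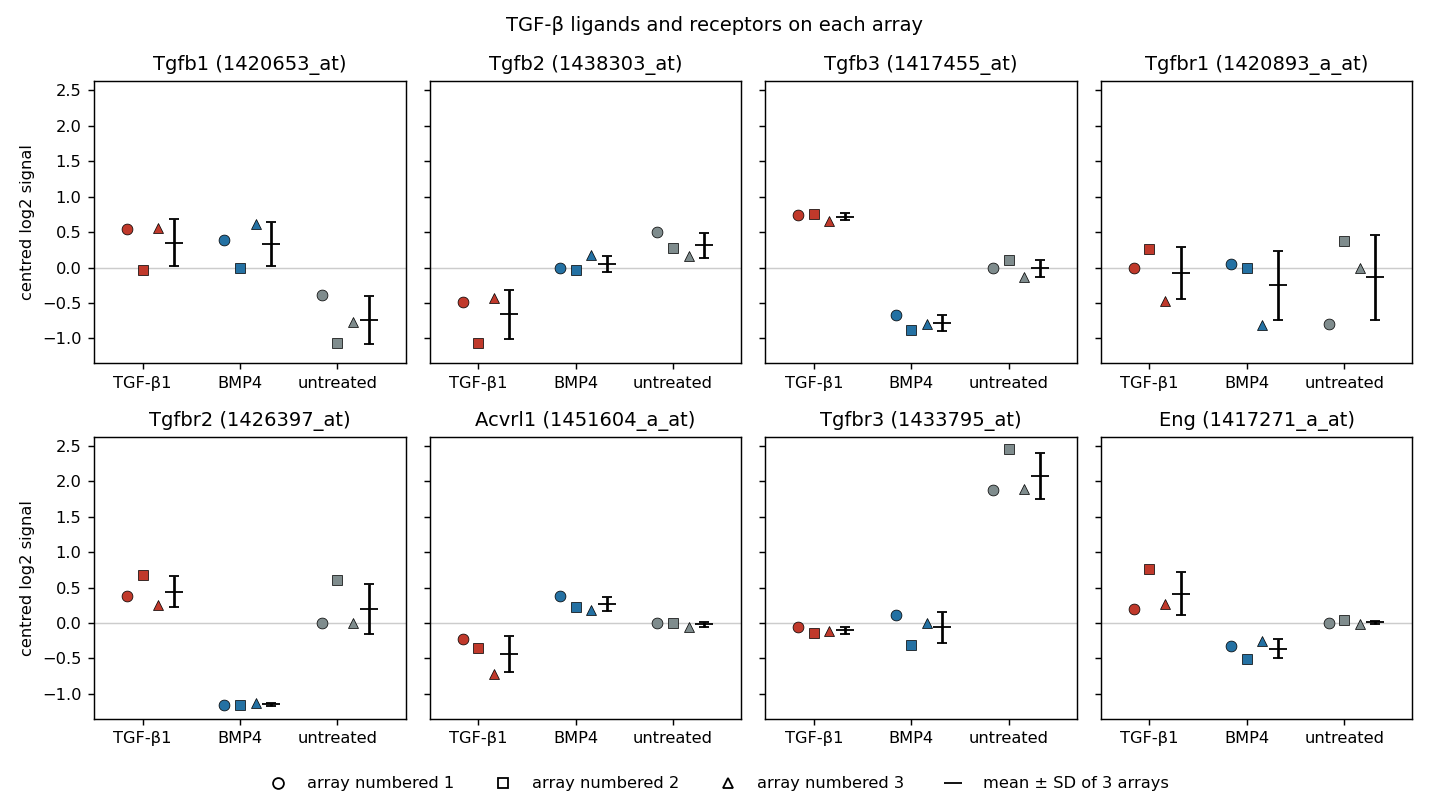
Centred log2 signal (y axis) of the representative probe set of each gene on every array, with TGF-β1 cultures in red, BMP4 cultures in blue and untreated cultures in grey, the symbol giving the replicate number and the bar the mean and SD of 3 arrays. Tgfbr3 lies between 1.88 and 2.45 on the 3 untreated arrays and between -0.30 and 0.12 on the 6 treated arrays, and Tgfb3 lies in 3 separate bands.

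Tgfb1 encodes TGF-β1 itself, the ligand that was added as protein to the TGF-β1 cultures. On 1 of its 2 probe sets, its mRNA rose with both factors and to a similar extent. The probe set 1420653_at read 0.54, -0.036 and 0.55 on TGF-β1 arrays 1 to 3, 0.39, 0 and 0.61 on BMP4 arrays, and -0.39, -1.07 and -0.77 on untreated arrays. Every treated array was above every untreated array, whereas the TGF-β1 and BMP4 arrays overlapped. The array numbered 2 was the lowest of its group in all 3 groups. Tgfb1 was 2.13-fold higher with TGF-β1 (log2 difference 1.09 ± 0.22, adjusted p = 0.021) and 2.11-fold higher with BMP4 (1.08 ± 0.22, adjusted p = 0.018). Within the arrays of 1 number the difference was 0.93, 1.03 and 1.32 with TGF-β1 and 0.78, 1.07 and 1.38 with BMP4. Since the treated and untreated arrays did not overlap, any pairing gives differences above 0. The numbers of BMP4 and untreated arrays were not taken as paired. The TGF-β1 and BMP4 cultures differed by 0.017 (95% interval -0.47 to 0.50, adjusted p = 0.98), an interval that leaves room for a difference in either direction.

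Whether the rises in Tgfb1 were called depended on which array was left out. Among the fits that left out 1 array, the calls were lost only without an array of the groups compared. With TGF-β1 the adjusted p was 0.086 without TGF-β1 replicate 1, 0.089 without TGF-β1 replicate 3, 0.069 without untreated replicate 2 and 0.052 without untreated replicate 3. It was 0.019 without TGF-β1 replicate 2 and 0.026 without untreated replicate 1. With BMP4 it was 0.072 without BMP4 replicate 1, 0.06 without BMP4 replicate 3, 0.058 without untreated replicate 2 and 0.055 without untreated replicate 3. The size of the difference was less affected and stayed between 0.91 and 1.29 in all of the fits that left out 1 array. The other Tgfb1 probe set, 1445360_at, read 0.29, 0.14 and 0.33 on TGF-β1 arrays, -0.055, 0 and -0.077 on BMP4 arrays, and -0.23, -0.46 and 0.014 on untreated arrays. It was 1.39-fold higher with TGF-β1 (0.48 ± 0.11, adjusted p = 0.044), a call that was lost under 11 of 17 alternative analyses. Its values on BMP4 and untreated arrays overlapped, and its difference with BMP4 was not called (0.18 ± 0.11, adjusted p = 0.49). In TGF-β1 against BMP4 cultures it was higher by 0.30 (95% interval 0.046 to 0.55). These 2 groups did not overlap, but the difference was not called (adjusted p = 0.17). The rise of Tgfb1 with BMP4 therefore rests on 1420653_at.

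Tgfb2, which encodes the ligand that relies on betaglycan, fell with TGF-β1. The probe set 1438303_at read -0.49, -1.07 and -0.43 on TGF-β1 arrays, 0, -0.042 and 0.17 on BMP4 arrays, and 0.51, 0.27 and 0.16 on untreated arrays. The TGF-β1 arrays were the lowest 3 of the 9, and the BMP4 arrays overlapped the untreated arrays. Tgfb2 was 1.97-fold lower with TGF-β1 (-0.98 ± 0.16, adjusted p = 0.0098). All 4 Tgfb2 probe sets were called, with differences of -0.98 to -0.93 and adjusted p of 0.002 to 0.0098, and they correlated at 0.94 to 0.99 with each other over the 9 arrays. These calls held without any 1 array. None of the 4 was called with BMP4, where the differences were -0.35 to -0.18 and the adjusted p 0.13 to 0.54. For 1423250_a_at the 95% interval with BMP4 was -0.60 to -0.091 and the groups did not overlap, and it was called when TGF-β1 replicate 2 was left out of the fit (adjusted p = 0.034). The direct comparison of the factors was called for all 4 probe sets, lower in TGF-β1 cultures by 0.59 to 0.76 on the log2 scale (adjusted p 0.0044 to 0.028). For 1438303_at alone this call was lost without BMP4 replicate 1 (adjusted p = 0.08), BMP4 replicate 2 (0.064) or BMP4 replicate 3 (0.086).

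Tgfb3, the third ligand, moved in opposite directions with the factors. Its only probe set, 1417455_at, read 0.74, 0.75 and 0.66 on TGF-β1 arrays, -0.66, -0.89 and -0.80 on BMP4 arrays, and 0, 0.099 and -0.13 on untreated arrays. The 3 groups did not overlap, with SDs of 0.051 (TGF-β1), 0.11 (BMP4) and 0.12 (untreated). Tgfb3 was 1.66-fold higher with TGF-β1 (0.73 ± 0.088, adjusted p = 0.002) and 1.71-fold lower with BMP4 (-0.77 ± 0.088, adjusted p = 0.00099). It was therefore 2.83-fold higher in TGF-β1 than in BMP4 cultures (1.5 ± 0.088, adjusted p = 1.5e-05). All 3 Tgfb3 calls held when any 1 array was left out.

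**Figure D2:**
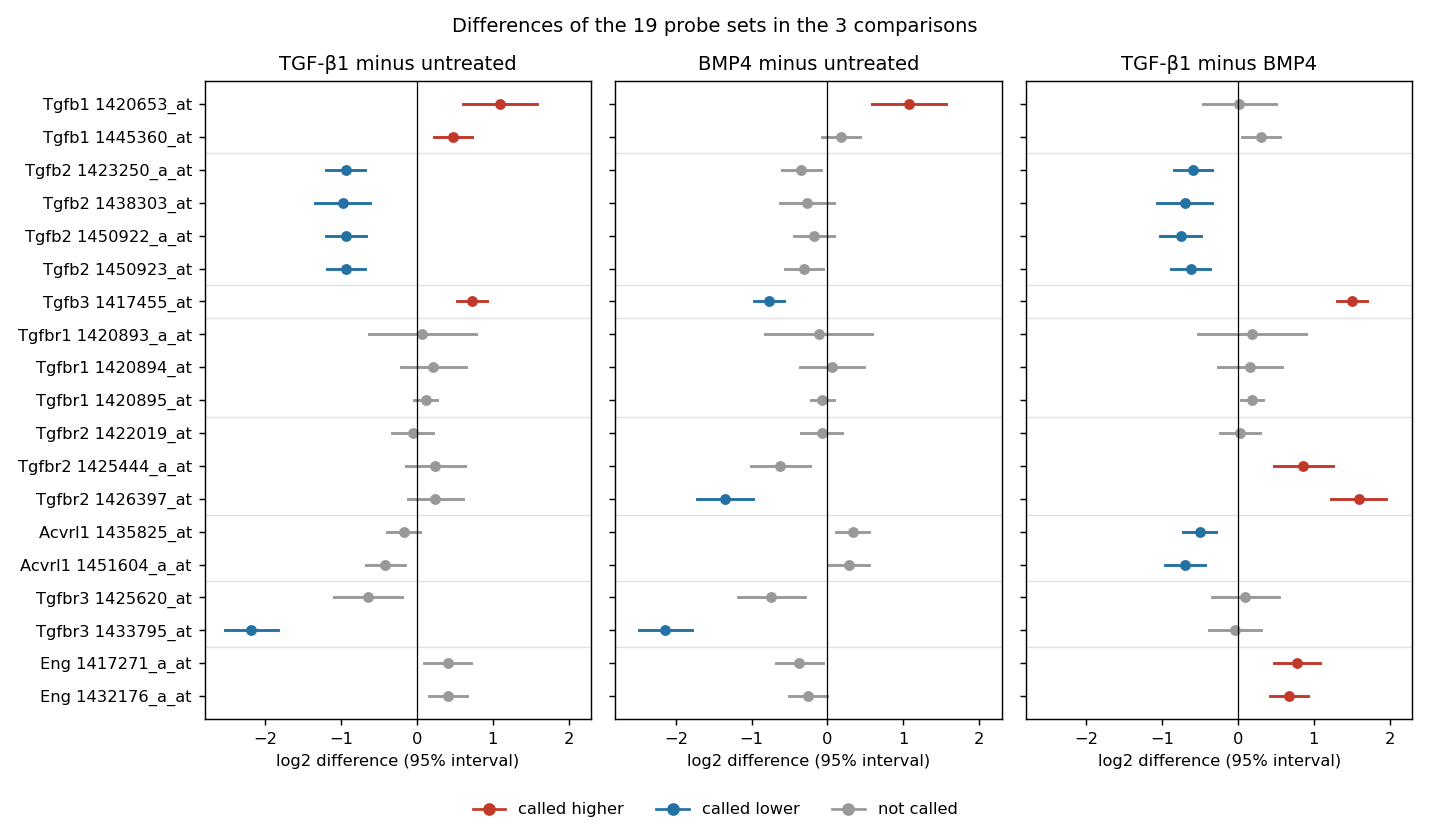
Log2 difference of each of the 19 probe sets (points) with its 95% interval (lines) in the 3 comparisons, red where called higher, blue where called lower and grey where not called. The 4 Tgfb2 probe sets lie together between -0.98 and -0.93 with TGF-β1, and Tgfb3 and Tgfbr2 (1426397_at) lie furthest right in the comparison of TGF-β1 with BMP4, at 1.5 and 1.59.

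Tgfbr2 encodes the type II receptor through which all 3 ligands act. Its mRNA fell with BMP4 and was not called with TGF-β1. The probe set 1426397_at read 0.38, 0.68 and 0.26 on TGF-β1 arrays, -1.16, -1.16 and -1.13 on BMP4 arrays, and 0, 0.61 and -0.001 on untreated arrays. The BMP4 arrays lay close together and far below every other array, and the TGF-β1 and untreated arrays overlapped. Tgfbr2 was 2.55-fold lower with BMP4 (-1.35 ± 0.16, adjusted p = 0.0013). With TGF-β1 the difference was 0.24 ± 0.16 (95% interval -0.12 to 0.60, adjusted p = 0.47). It was 3.02-fold higher in TGF-β1 than in BMP4 cultures (1.59 ± 0.16, adjusted p = 0.00036). Both calls held without any 1 array.

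The other Tgfbr2 probe sets did not all follow. The probe set 1425444_a_at, which correlated at 0.93 with 1426397_at, read 0.32, 0.37 and 0.075 on TGF-β1 arrays, -0.45, -0.59 and -0.78 on BMP4 arrays, and -0.37, 0.40 and 0 on untreated arrays. Its difference with BMP4 had the same direction and missed the threshold (-0.62 ± 0.18, adjusted p = 0.076). Untreated replicate 1 stood near the BMP4 arrays, and without it the call was made (adjusted p = 0.023). In TGF-β1 against BMP4 cultures 1425444_a_at was 1.82-fold higher (0.86 ± 0.18, adjusted p = 0.016), a call lost without TGF-β1 replicate 1 (adjusted p = 0.059), TGF-β1 replicate 2 (0.062), BMP4 replicate 2 (0.05) or BMP4 replicate 3 (0.055). The probe set 1422019_at correlated with neither (0.07 and -0.05), and its differences of -0.052, -0.077 and 0.026 in the 3 comparisons were not called (adjusted p 0.84 to 0.94). Which transcripts these probe sets read was not examined.

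Tgfbr1, the type I receptor that phosphorylates Smad2 and Smad3, was not called in any comparison on any of its 3 probe sets. The probe set 1420893_a_at read 0, 0.26 and -0.47 on TGF-β1 arrays, 0.052, 0 and -0.81 on BMP4 arrays, and -0.79, 0.37 and 0 on untreated arrays. All 3 groups overlapped, and the spread within a group was larger than any difference between groups. The intervals were wide, from -0.64 to 0.78 with TGF-β1 and from -0.82 to 0.59 with BMP4, so this probe set left room for a Tgfbr1 mRNA up to 1.71 times that of untreated cultures with TGF-β1. The groups also overlapped on 1420894_at, with differences of 0.22, 0.058 and 0.16 in the 3 comparisons (adjusted p 0.59 to 0.93). The probe set 1420895_at was far less variable. It read 0.17, 0.093 and 0.091 on TGF-β1 arrays, -0.028, -0.12 and -0.048 on BMP4 arrays, and -0.001, 0.01 and 0 on untreated arrays. Its 3 groups did not overlap, although no difference was called. Its intervals were -0.036 to 0.26 with TGF-β1 and -0.22 to 0.08 with BMP4. In the direct comparison it was 0.18 ± 0.067 higher in TGF-β1 cultures, which was not called (adjusted p = 0.15).

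Acvrl1, which encodes the alternative type I receptor ALK1, differed between the factors. The probe set 1451604_a_at read -0.23, -0.36 and -0.71 on TGF-β1 arrays, 0.38, 0.23 and 0.19 on BMP4 arrays, and 0, 0 and -0.054 on untreated arrays. The 3 groups did not overlap, with TGF-β1 lowest and BMP4 highest. It was 1.62-fold lower in TGF-β1 than in BMP4 cultures (-0.70 ± 0.12, adjusted p = 0.0061), and the other probe set, 1435825_at, was 1.42-fold lower (-0.51 ± 0.097, adjusted p = 0.012). Without BMP4 replicate 1 the call of 1435825_at was lost (adjusted p = 0.051), and without the 3 arrays numbered 2 that of 1451604_a_at was lost (adjusted p = 0.057). Neither change against untreated cultures was called for 1451604_a_at (-0.41 ± 0.12 with TGF-β1, adjusted p = 0.085, and 0.28 ± 0.12 with BMP4, adjusted p = 0.25). Blocked on the replicate number, the TGF-β1 difference of 1451604_a_at was called (adjusted p = 0.029), the only one of the 19 probe sets whose call with TGF-β1 changed under the block. For 1435825_at the differences were -0.17 with TGF-β1 (adjusted p = 0.39) and 0.34 with BMP4 (adjusted p = 0.085).

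Tgfbr3, which encodes the co-receptor betaglycan, showed the largest change of the 8 genes and fell by a similar amount with both factors. The probe set 1433795_at read -0.056, -0.15 and -0.11 on TGF-β1 arrays, 0.12, -0.30 and 0 on BMP4 arrays, and 1.88, 2.45 and 1.90 on untreated arrays. The treated arrays lay together, with TGF-β1 and BMP4 overlapping, and far below the lowest untreated array. Tgfbr3 was 4.53-fold lower with TGF-β1 (-2.18 ± 0.16, adjusted p = 0.00015) and 4.41-fold lower with BMP4 (-2.14 ± 0.16, adjusted p = 0.00011). By the size of the difference it ranked 17 of 45037 probe sets with TGF-β1 and 36 with BMP4. The factors differed by -0.040 ± 0.16 (95% interval -0.39 to 0.31, adjusted p = 0.92). In cultures, fewer cells that carry a transcript and less transcript per cell cannot be told apart.

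Within the arrays of 1 number the Tgfbr3 difference was -1.94, -2.6 and -2.0 with TGF-β1 and -1.77, -2.76 and -1.9 with BMP4. Since the treated and untreated arrays did not overlap, any pairing gives differences below 0. The numbers of BMP4 and untreated arrays were not taken as paired. The other Tgfbr3 probe set, 1425620_at, correlated at 0.84 with 1433795_at and read 0, 0 and 0.050 on TGF-β1 arrays, -0.097, -0.023 and -0.13 on BMP4 arrays, and 0.086, 1.09 and 0.80 on untreated arrays. The treated arrays were the lowest 6 again, but untreated replicate 1 stood close to them. Its differences of -0.64 ± 0.20 with TGF-β1 (adjusted p = 0.11) and -0.74 ± 0.20 with BMP4 (adjusted p = 0.064) were not called. Without untreated replicate 1 they were -0.93 (adjusted p = 0.0031) and -1.03 (adjusted p = 0.0015). Both calls of 1433795_at held without any 1 array. Its size depended on the scaling, since quantile normalization of the deposited values gave -3.05 with TGF-β1 and -2.99 with BMP4.

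Eng, the co-receptor endoglin, was not called against untreated cultures and was higher in TGF-β1 than in BMP4 cultures. The probe set 1417271_a_at read 0.21, 0.77 and 0.28 on TGF-β1 arrays, -0.32, -0.51 and -0.25 on BMP4 arrays, and 0, 0.037 and -0.007 on untreated arrays. The 3 groups did not overlap, and array 2 stood furthest from the untreated arrays with either factor. It was 1.72-fold higher in TGF-β1 than in BMP4 cultures (0.78 ± 0.14, adjusted p = 0.0079), and 1432176_a_at was 1.59-fold higher (0.67 ± 0.11, adjusted p = 0.0062). Both calls held without any 1 array. Against untreated cultures the differences of 1417271_a_at were 0.41 ± 0.14 with TGF-β1 (adjusted p = 0.14) and -0.37 ± 0.14 with BMP4 (adjusted p = 0.18). Neither the interval with TGF-β1 (0.098 to 0.71) nor that with BMP4 (-0.68 to -0.065) included 0. The BMP4 difference was called when TGF-β1 replicate 2 was left out of the shared estimate of spread (adjusted p = 0.041). For 1432176_a_at the differences were 0.41 ± 0.11 with TGF-β1 (adjusted p = 0.078) and -0.26 ± 0.11 with BMP4 (adjusted p = 0.28).

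Eng and Acvrl1 are known from endothelium, and 12 endothelial markers were therefore examined. Their mean centred signal was between -0.008 and 0.095 on TGF-β1 arrays, between -0.014 and -0.004 on BMP4 arrays and between -0.05 and 0.069 on untreated arrays. With limma 0 of the 12 were called in each comparison, and 1, 1 and 0 had an unadjusted p under 0.05 with TGF-β1, with BMP4 and between the factors. With the replicate block 1 was called higher in each: Flt1, a VEGF receptor, with TGF-β1 (0.73 ± 0.26, adjusted p = 0.15 without the block and 0.0053 with it) and between the factors (0.54 ± 0.26, 0.28 and 0.013), and Kdr, another VEGF receptor, with BMP4 (0.49 ± 0.20, 0.22 and 0.02). Their part in the Eng and Acvrl1 results was not tested. Cdh5, the cadherin of endothelial junctions, differed by -0.16 ± 0.099 with TGF-β1 (adjusted p = 0.43) and by -0.052 ± 0.099 with BMP4 (adjusted p = 0.87). Whether endothelial transcripts were present at all cannot be read from centred values.

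**Figure D3:**
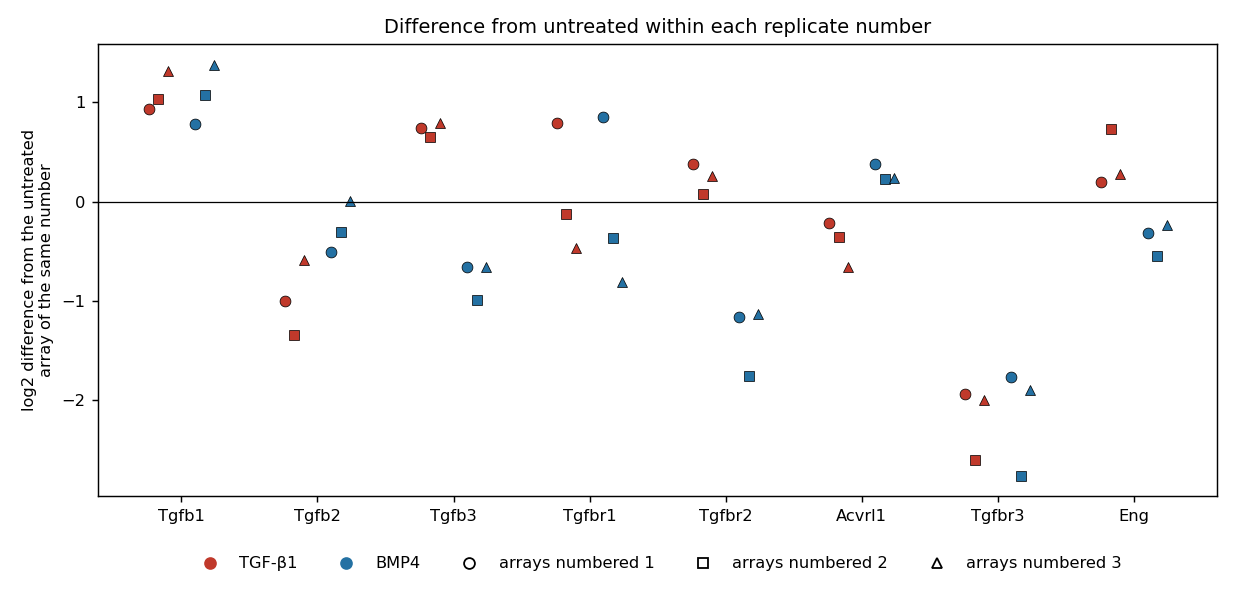
Log2 difference of the representative probe set of each gene from the untreated array of the same replicate number (y axis), with TGF-β1 in red and BMP4 in blue and the symbol giving the number. Tgfb1 is above 0 and Tgfbr3 below 0 in all 6 differences, and Tgfb3, Tgfbr2, Acvrl1 and Eng change sign between the factors in all 3 numbers. Except for Tgfbr2, any pairing of the arrays gives these signs, since treated and untreated arrays of these genes do not overlap.

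The 8 genes thus showed several patterns side by side, read from the representative probe sets of the members with a call. Tgfb1 (1.09 with TGF-β1 and 1.08 with BMP4) and Tgfbr3 (-2.18 and -2.14) differed from untreated cultures by a like amount with either factor. Tgfb2 was called with TGF-β1 only (-0.98, against -0.27 with BMP4), and the direct comparison of the factors was called. Tgfbr2 was called with BMP4 only (-1.35, against 0.24 with TGF-β1), and again the direct comparison was called. Tgfb3 (0.73 and -0.77) was called in opposite directions, and Eng (0.41 and -0.37) and Acvrl1 (-0.41 and 0.28) had opposite signs without calls against untreated cultures. The comparisons with untreated cultures share the untreated arrays.

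The other parts of the pathway were examined as lists, with 1 probe set for each gene. The 6 lists held 83 measured genes, of which 20 were called with TGF-β1 against untreated cultures, 18 with BMP4 against untreated cultures and 28 between the factors. Over all genes, for these and the lists below, the shares called were 6.75%, 7.96% and 10.1%. With the replicate block the list counts were 35 with TGF-β1 and 42 between the factors. The block also raised the calls over all probe sets, from 1993 to 4029 and from 3110 to 5252. Of the 9 other receptors of the family, 1 was called higher and 0 lower with TGF-β1, 3 higher and 0 lower with BMP4, and 0 higher and 2 lower in TGF-β1 against BMP4 cultures (list medians -0.024, 0.022 and -0.13). With the block the counts with TGF-β1 were 2 higher and 1 lower. Acvr1 (ALK2), a type I receptor for BMPs and activins, rose with both factors (0.86 ± 0.092, adjusted p = 0.001 with TGF-β1, and 0.59 ± 0.092, adjusted p = 0.0048 with BMP4). Bmpr2, the type II receptor for BMPs, rose with BMP4 (0.77 ± 0.15, adjusted p = 0.016), as did Acvr1b, an activin receptor (0.47 ± 0.08, adjusted p = 0.0082). Over all genes the medians were 0.010, 0.003 and 0.006 in the 3 comparisons.

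Among the 8 Smads, the counts called higher and lower were 1 and 1 with TGF-β1, 2 and 1 with BMP4, and 1 and 2 between the factors (medians 0.049, 0.15 and -0.14). Smad3, which carries the TGF-β signal, fell with TGF-β1 (-0.61 ± 0.11, adjusted p = 0.013) and with BMP4 (-1.18 ± 0.11, adjusted p = 3e-04). Smad2 and Smad4 were not called in any comparison. The inhibitory Smad7 rose with TGF-β1 (0.41 ± 0.099, adjusted p = 0.048) and with BMP4 (1.12 ± 0.099, adjusted p = 0.00024), and the inhibitory Smad6 rose with BMP4 (1.79 ± 0.13, adjusted p = 0.00011).

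The genes that hold TGF-β latent or release it (18 of 20 measured) were called 3 higher and 0 lower with TGF-β1, 1 higher and 4 lower with BMP4, and 5 higher and 0 lower in TGF-β1 against BMP4 cultures (medians 0.38, -0.16 and 0.52). With the block 7 were called higher with TGF-β1 and 11 higher between the factors, with 0 lower in either. Ltbp1, a latent TGF-β binding protein, rose with TGF-β1 (0.44 ± 0.098, adjusted p = 0.035) and was 1.90-fold higher in TGF-β1 than in BMP4 cultures (0.93 ± 0.098, adjusted p = 0.00042). Ltbp2, a matrix protein of the same family, rose 2.36-fold with TGF-β1 (1.24 ± 0.25, adjusted p = 0.025), and Emilin1, which limits the processing of the TGF-β1 precursor, rose 1.5-fold (0.59 ± 0.074, adjusted p = 0.0024). With BMP4, Furin, the protease that cleaves the precursor, rose 1.48-fold (0.57 ± 0.11, adjusted p = 0.012). Itgb5, a subunit of an integrin that can activate TGF-β, fell 2.03-fold with BMP4 (-1.02 ± 0.12, adjusted p = 9e-04).

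The matrix proteins that bind TGF-β were called 5 higher and 0 lower of 8 with TGF-β1, 1 higher and 1 lower with BMP4, and 6 higher and 0 lower between the factors (medians 1.13, -0.076 and 0.94). Fmod (fibromodulin) rose 5.77-fold with TGF-β1 (2.53 ± 0.20, adjusted p = 0.00021), Adamtsl2 4.37-fold (2.13 ± 0.17, adjusted p = 0.00025) and Cilp 3.25-fold (1.70 ± 0.17, adjusted p = 0.00061). Dcn (decorin) fell 1.43-fold with BMP4 (-0.52 ± 0.10, adjusted p = 0.015), and the protease Htra1 rose 1.37-fold (0.46 ± 0.08, adjusted p = 0.0092). With TGF-β1 Htra1 rose more, 3.09-fold (1.63 ± 0.08, adjusted p = 1.3e-05). It was 2.25-fold higher in TGF-β1 than in BMP4 cultures (1.17 ± 0.08, adjusted p = 4.2e-05). The study had already named Fmod, Adamtsl2, Cilp and Htra1 from these arrays, so their counts are not independent evidence.

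The early TGF-β target genes (19 of 20 measured) were called 7 higher and 1 lower with TGF-β1, 2 higher and 2 lower with BMP4, and 7 higher and 4 lower in TGF-β1 against BMP4 cultures (medians 0.41, 0.051 and 0.43). Pmepa1, which limits TGF-β signalling and also stands in the list of regulators, rose 3.97-fold with TGF-β1 (1.99 ± 0.14, adjusted p = 0.00014). Lox, the collagen cross-linking enzyme, rose 3.14-fold (1.65 ± 0.27, adjusted p = 0.009). The gene called lower with TGF-β1 was Snai2, which fell 2.34-fold (-1.23 ± 0.21, adjusted p = 0.011). It was 3.94-fold lower in TGF-β1 than in BMP4 cultures (-1.98 ± 0.21, adjusted p = 0.00042). Snai1 rose 2.15-fold with BMP4 (adjusted p = 0.0015) and was 3.03-fold lower in TGF-β1 than in BMP4 cultures (adjusted p = 0.00013). The study had named Bhlhe40, a transcription factor, from these arrays. It rose 2.42-fold with TGF-β1 (1.28 ± 0.13, adjusted p = 0.00094) and fell 1.78-fold with BMP4 (-0.83 ± 0.13, adjusted p = 0.0061).

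The 23 regulators of receptor turnover and activity were called 3 higher and 0 lower with TGF-β1, 2 higher and 0 lower with BMP4, and 1 higher and 2 lower between the factors (medians -0.019, 0.072 and -0.077). With the block the counts were 4 higher and 2 lower with TGF-β1 and 2 higher and 4 lower between the factors. Besides Pmepa1, Smurf1, a ubiquitin ligase that acts on the receptors, rose 1.37-fold with TGF-β1 (0.45 ± 0.097, adjusted p = 0.03), and so did Fkbp1a, which binds the type I receptor (0.35 ± 0.075, adjusted p = 0.029). Bambi, a pseudoreceptor that lacks the kinase, rose 3.83-fold with BMP4 (1.94 ± 0.11, adjusted p = 3.9e-05).

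**Figure D4:**
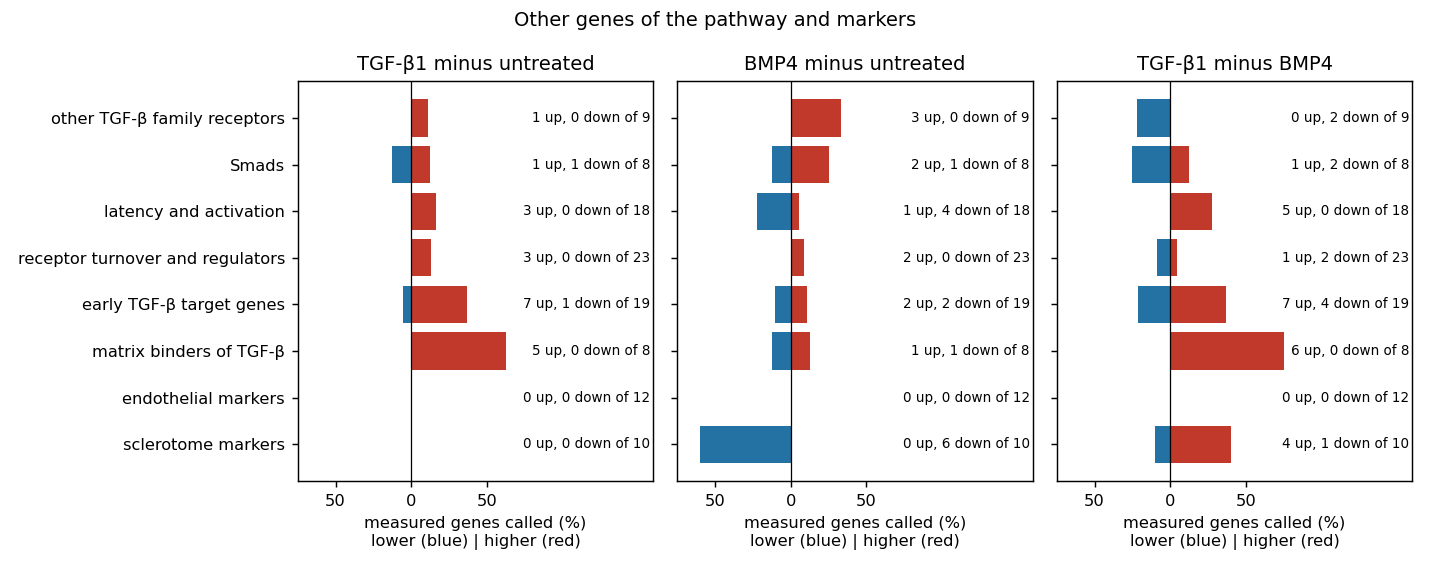
Share of the measured genes of each list called lower (blue, to the left) and higher (red, to the right) in the 3 comparisons, in percent, with the counts printed at the right. Matrix binders of TGF-β have the largest share called higher with TGF-β1 (5 of 8), and sclerotome markers the largest share called lower with BMP4 (6 of 10).

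Markers of the tissue and of other cells moved with some groups. The 10 sclerotome markers averaged -0.013 to 0.17 on TGF-β1 arrays, -0.49 to -0.45 on BMP4 arrays and 0.012 to 0.46 on untreated arrays, and 6 were called lower with BMP4. With TGF-β1 0 of them were called by limma (3 at an unadjusted p under 0.05, and 1 lower with the replicate block), and 4 were called higher and 1 lower in TGF-β1 against BMP4 cultures (7 and 1 with the block). The list median was -0.67 with BMP4 and -0.18 with TGF-β1. Nkx3-2 and Foxc2 of the list had differences above 0 with BMP4 (0.22 and 0.30, not called). Tgfbr2, Tgfb3 and Tgfbr3 also fell with BMP4, and the part of the sclerotome list in the results of the 8 genes was not tested. The 8 smooth muscle and pericyte markers were lowest on the array numbered 2 in each group (-0.11 with TGF-β1, -0.52 with BMP4 and -0.85 untreated), as was Tgfb1. So were the 7 measured neural markers (-0.64, -0.39 and -0.058), and the part of either list in the Tgfb1 values was not tested. The smooth muscle and pericyte markers were called 1 higher and 0 lower with TGF-β1, 2 higher and 1 lower with BMP4, and 1 higher and 1 lower between the factors. With the replicate block 5 were called higher with TGF-β1, and 3 higher and 1 lower between the factors. Among the 5 were Cnn1 and Tagln of the contractile apparatus (differences 1.37 and 0.89, adjusted p = 0.15 and 0.35 without the block). Acta2 (0.12), Des (-0.08) and Pdgfrb (0.028) were not called with TGF-β1 in either fit. Of the 12 markers of macrophages and platelets, which are known for high TGF-β1, 0 were called in each comparison with limma and 3, 0 and 0 had an unadjusted p under 0.05. With the replicate block 1 of them was called lower with TGF-β1. The 7 measured erythroid markers were called 0 times in each comparison (3, 4 and 0 at an unadjusted p under 0.05). Of the 8 skeletal muscle markers 0, 2 and 1 were called, of the 7 measured neural markers 1, 1 and 0, and of the 6 measured notochord and epithelial markers 1, 2 and 1. With the replicate block 4 skeletal muscle markers (Myod1, Myf5, Pax7 and Actn2) were called lower with TGF-β1 and 2 lower between the factors, 2 neural markers were called lower with TGF-β1 and 1 lower between the factors, and 2 notochord and epithelial markers were called higher between the factors.

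Genes with the most similar profile over the 9 arrays were named for each member with a call, as the 3 highest Pearson correlations among 2659 genes with an SD of at least 0.3. The points share their arrays and the treatments, so the correlations are descriptions. Tgfb3 was closest to Hook1 (0.99), Fgf18 (0.99) and Samd4 (0.987). Of these Fgf18, a growth factor of cartilage, differed by 2.14 with TGF-β1 and by -2.70 with BMP4. Tgfbr3 was closest to Gprin2 (0.993), Map2k6 (0.992) and Arhgap20 (0.987), and Tgfbr2 to Bex4 (0.991), Pou6f1 (0.987) and Cldn11 (0.987). Cldn11, a tight junction protein, differed by 0.43 with TGF-β1 and by -2.89 with BMP4. The closest genes were less similar for Tgfb1 (Enc1 0.975, Rgs2 0.964 and Ak5 0.945), Tgfb2 (Smarca1 0.964, Zfp28 0.956 and Trim2 0.937), Acvrl1 (Umad1 0.972, Rpp40 0.971 and Lmo4 0.958) and Eng (Nfic 0.972, Dapk1 0.962 and Cacna1g 0.958).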

How the data were processed

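RNA of 9 cultures (50 ng each) was amplified, labelled with biotin and hybridised to Affymetrix mouse arrays. The authors deposited log2 signals made with RMA (named in the submitters' processing notes without a version) and centred on the median of each probe set over the 9 arrays, which was 0 in all 45101 of them (tolerance 1e-06). After 64 control probe sets were left out, 45037 were tested, of which 34945 had 1 gene symbol, 932 several and 9160 none. All 19 probe sets of the 8 genes were found in the RefSeq gene table and 0 symbols changed. No array was left out, 0 pairs of arrays were identical, and array SDs were 0.177 to 0.258. Centred values give no signal over background, and the number of arrays limits the precision.

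The groups were compared in R 4.3.3 with limma 3.58.1 (group means over all 9 arrays, 6 residual and 4.01 prior degrees of freedom, median residual SD 0.129), two-sided, with Benjamini-Hochberg adjustment over 45037 probe sets. The script was tested on simulated data. Python 3.11.15 read the promoters and drew the figures. The representative probe set of a gene has the largest variance over the 9 arrays. Named genes were all members, the 3 nearest genes of each member with a call, and up to 3 called genes from each pathway list and comparison, with Smad2, Smad3 and Smad4. Cdh5 was named for its role, and other markers after their values were seen. The members and lists were chosen with earlier results of these data known.

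The replicate numbers come from the sample titles, which do not say that a number marks a repeat. Deviations from the group means of same-numbered arrays correlated at 0.14, 0.49 and 0.28 for TGF-β1 with untreated and at 0.29, 0.50 and 0.38 for TGF-β1 with BMP4, so these were taken as paired, and at -0.05, 0.50 and 0.24 for BMP4 with untreated, which were not. A number that marks an occasion would mark it in all 3 groups, so this rule does not settle the pairing. The main fit used no pairing. The alternatives were the block, the compared groups only, leaving out arrays, quantile normalization, re-centring, array weights, other sets of probe sets, and the ANOVA with unequal variance of the study's methods.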

Additional observations from a re-analysis of the deposited data

How the results depend on the processing

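Over single probe sets of the 8 genes, results called changed were kept in 353 alternative fits and lost in 51, and results not called stayed so with the same sign in 562, were called in 8 and changed sign in 19. No called result changed sign. Of the 19 probe sets, the number called ran from 6 to 8 with TGF-β1, from 3 to 6 with BMP4 and from 9 to 11 between the factors when 1 array was left out. Adjusted over 1 probe set a gene, 4 of 8 genes were called with TGF-β1 and 5 of 8 between the factors. The ANOVA with unequal variance of the methods called 0 of the 19 in each comparison after Benjamini-Hochberg adjustment, and 0, 0 and 11 of all probe sets. With it, 2, 3 and 2 of the 19 passed both an unadjusted p under 0.05 and the methods' fold threshold. Over all probe sets, 253, 433 and 543 passed both with this ANOVA. With limma 12, 12 and 13 of the 19 had an unadjusted p under 0.05, where 8427, 7693 and 9029 of all 45037 probe sets did. The calls over all probe sets without 1 array were 867 to 2053, 1431 to 2262 and 1877 to 3330.

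With the replicate block, 9, 6 and 11 of the 19 were called. The block changed no call between the factors. For BMP4 with untreated, where the numbers were not taken as paired, it added Tgfbr2 1425444_a_at (adjusted p = 0.042) and Tgfbr3 1425620_at (0.033), and 4069 of all probe sets were called, against 2449. The pathway lists had 35 calls with TGF-β1 under the block, against 20, where calls over all probe sets rose from 1993 to 4029. Without the 3 arrays numbered 2, the difference between the factors was no longer called for Tgfb2 1438303_at (-0.55, adjusted p = 0.085) and Acvrl1 1451604_a_at (-0.75, adjusted p = 0.057), with fewer arrays in the fit.

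The sign changes were all in differences near 0. Tgfbr1 1420893_a_at with BMP4 was 0.015 without the arrays numbered 2, 0.013 after quantile normalization and 0.089 with array weights, against -0.11. Leaving out 1 array, it ran from -0.44 to 0.17 with BMP4, from -0.26 to 0.33 with TGF-β1 and from -0.097 to 0.38 between the factors. Tgfbr1 1420894_at ran from -0.14 to 0.24 with BMP4 and from -0.020 to 0.30 between the factors. Tgfbr2 1422019_at ran from -0.11 to 0.055 with TGF-β1, from -0.19 to 0.03 with BMP4 and from -0.08 to 0.13 between the factors. Between the factors, Tgfb1 1420653_at ran from -0.15 to 0.21 and Tgfbr3 1433795_at from -0.16 to 0.049. The cause of these changes was not tested.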

Other observations

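Several of the 8 genes had their most extreme values on the arrays numbered 2. Tgfb1 1420653_at was lowest on array 2 in all 3 groups, at -0.036 with TGF-β1, 0 with BMP4 and -1.07 untreated. Tgfb2 1438303_at was lowest on array 2 with TGF-β1 (-1.07) and with BMP4 (-0.042) but not in untreated cultures (0.27). Tgfbr2 1426397_at was highest on array 2 with TGF-β1 (0.68) and untreated (0.61), whereas the BMP4 arrays lay together. Tgfbr3 1433795_at was highest on untreated array 2 (2.45) and lowest on array 2 with TGF-β1 (-0.15) and with BMP4 (-0.30), so its difference within the arrays numbered 2 was -2.6 with TGF-β1 and -2.76 with BMP4, against -1.94 and -2.0 with TGF-β1 and -1.77 and -1.9 with BMP4 in the other numbers. These rankings were noticed after the values had been seen and were not tested.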
